A study of Sus scrofa with 35 samples.

Results

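Blood transcriptomes of F1 pigs and Creole (CR) pigs were compared under heat stress (HS). The members were defined by their labels, as the 6 F1 and the 6 CR pigs kept in the heat, and they made up 12 of the 35 pigs of the series. CR is a Caribbean local breed, Large White (LW) is a commercial European breed, and the F1 pigs came from crosses of the 2 breeds. All pigs were castrated growing males, aged 11 weeks when they entered the climatic room in Guadeloupe. HS is given as 30 °C by the sample labels and as 32 °C by the protocol text. According to the methods the pigs were slaughtered after 4 or 5 d of it, and no label tells the 2 days apart. The thermoneutral (TN) pigs, 6 F1 and 5 CR pigs in the same contrast, were sampled at 24 °C before the temperature rose. The 6 LW pigs in HS are given as levels beside the other breeds. According to the methods, pigs were taken from few litters per breed and penned by breed. Each litter was spread over the pens of both climates, so the TN pigs are littermates of the HS pigs. No label gives litter, sire or pen, so breed, litter and pen cannot be told apart within the 12 pigs.

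Each pig had 1 array with probes of 60 bases, read in whole blood RNA. A value is a normalised log2 intensity, a difference is the mean of the F1 pigs minus the mean of the CR pigs on that log2 scale, and a difference of 1 is a doubling. Errors of differences are standard errors (SE) from limma. P-values were adjusted over all probes by the Benjamini-Hochberg method with a threshold of 0.05. They measure the spread between pigs that have 1 array each, and the tests treat the pigs of a group as independent. By the methods pigs of a group share litters and pens, so the p-values may be too small. Whole blood is a mixture of immature red cells, platelets and white cells, so fewer cells of a type and less RNA per cell cannot be told apart. Markers of these cells were present. All 5 probes of hemoglobin chains, 54 of the 56 probes of the T cell list and 34 of the 37 probes of the neutrophil list were well above background on all 12 arrays.

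Under HS, 22 of 39072 probes (0.0563%) differed between F1 and CR pigs, 15 of them higher (0.0384%) and 7 lower (0.0179%) in F1 pigs. Without adjustment, 1179 probes (3.02%) had a p under 0.05, of which 799 were higher (2.04%) and 380 lower (0.973%). The higher probes belonged to SLA-3, a classical MHC class I gene of the pig, to the mitochondrially encoded COX2, to an immunoglobulin G1 constant region, and to KIT, MYBPH, CMBL and LOC100335347, together with 4 sequences without a gene name. The lower probes belonged to LOC100526026, to MTRF1 and to 2 unnamed sequences. Counting probes of one gene or of shared sequence once, 11 items were higher and 4 were lower. Among the 22 probes, absolute differences ran from 0.62 to 4.52, and 15 probes differed by 2-fold or more. The values of the F1 and CR pigs did not overlap at all for 12 of the 22 probes, against 85 of all 39072 probes (0.218%). Every slide held pigs of both groups, often 1 against 1, and each of the 22 probes had the same direction on all 5 slides, which describes the pigs the probes were called in and is no separate test.

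Several biological systems meet in these probes. MHC class I molecules, called SLA in the pig, display peptides from inside the cell to cytotoxic T cells, and their genes are among the most variable between animals. The mitochondrial genome encodes subunits of the respiratory chain, and it is inherited from the dam. Immunoglobulin G heavy chains occur as subclasses with distinct constant regions, made by B cells and plasma cells. An F1 pig carries 1 nuclear genome copy from each parental breed, so the LW pigs are a useful reference beside the CR pigs. A probe reads only the stretch of transcript that it matches, and several of the genes above had probes that lie on the same stretch with different letters.

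The sequences that carry these findings are shown here from the scanner files, 5′ to 3′ in lower case, with a capital where the overlapping probes of a gene differ. The first pair lies in the coding sequence of COX2, cytochrome c oxidase subunit 2. These probes shared 48 bases with 1 difference, T45A, counted from the first base of A_72_P751248.
COX2 A_72_P751248: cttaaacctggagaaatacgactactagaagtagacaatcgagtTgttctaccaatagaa
COX2 A_72_P746371: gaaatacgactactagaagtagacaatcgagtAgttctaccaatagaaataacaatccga
The second pair belongs to SLA-3, of which 30 bases are shown around a difference, C30A, counted from the first base of A_72_P515992. The pair shared 57 bases, with a further difference at A60G that lies outside the part shown.
SLA-3 A_72_P515992: acagttccaagggtCggtttagaaataggg
SLA-3 A_72_P609764: acagttccaagggtAggtttagaaataggg
The last ones are another SLA-3 probe, elsewhere in the transcript, and the probe for the constant region of immunoglobulin G1b, without an overlapping partner and therefore without capitals.
SLA-3 A_72_P517623: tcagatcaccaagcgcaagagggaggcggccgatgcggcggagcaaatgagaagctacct
IgG1b A_72_P713930: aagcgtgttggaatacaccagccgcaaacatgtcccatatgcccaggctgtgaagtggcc

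**Figure D1:**
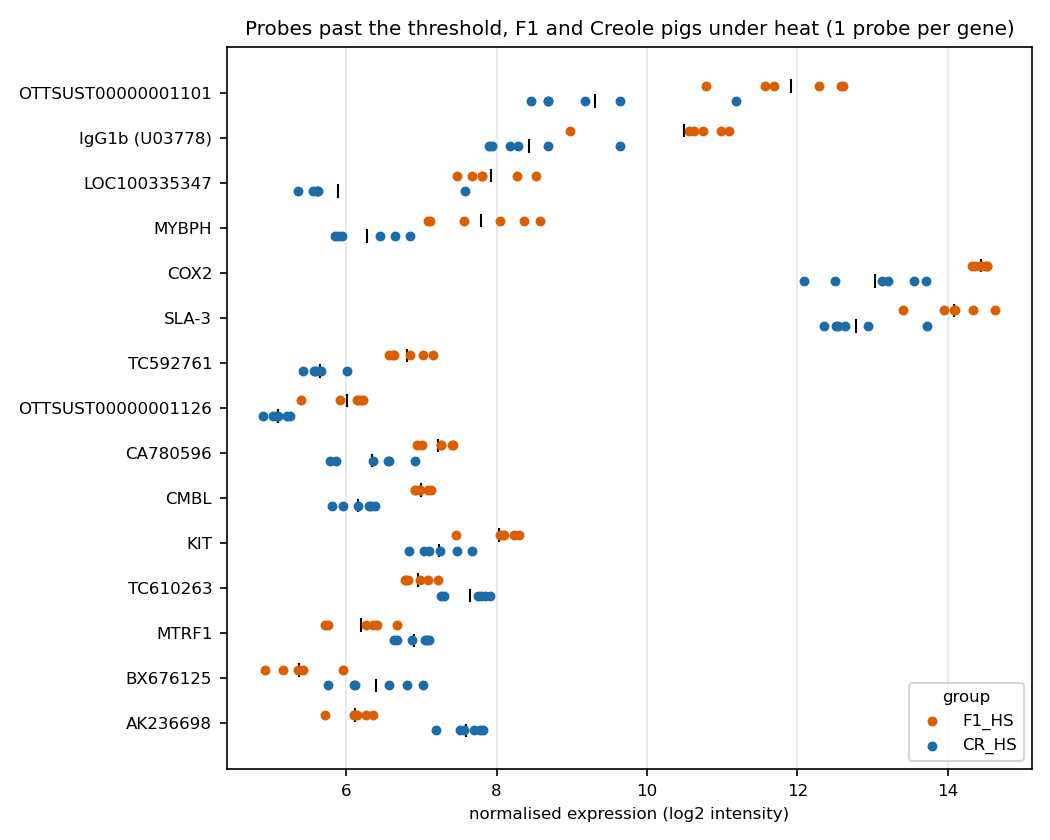
Normalised expression (log2 intensity, horizontal axis) of each of the 6 F1_HS and 6 CR_HS pigs for 1 probe of each of the 15 genes or sequences past the threshold. Points are pigs, black ticks are group means, and rows are ordered by the difference, so that the 4 items lower in F1 pigs stand at the bottom. AK236698 stands for the overlapping LOC100526026 probes.

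SLA-3 was higher in F1 pigs with 4 of its 8 probes. For the probe A_72_P515992, F1 pigs had values of 15.52 to 17.16 (median 16.42) and CR pigs of 13.45 to 15.75 (median 14.11), a difference of 2.12 ± 0.38 (limma, adjusted p = 0.00961). The overlap of the groups came from 1 CR pig, replicate 1, at 15.75, while the other 5 CR pigs lay at or under 14.28. Its overlapping partner A_72_P609764 ranged from 15.41 to 16.53 in F1 pigs (median 16.09), against 14.03 to 15.53 in CR pigs (median 14.66), a difference of 1.36 ± 0.25 (adjusted p = 0.0217). The same CR pig was again the highest of its group. The probe A_72_P517623, elsewhere in the transcript, ranged from 10.82 to 12.24 in F1 pigs, against 9.23 to 11.01 in CR pigs, a difference of 1.57 ± 0.31 (adjusted p = 0.0321). The probe A_72_P625308 ranged from 13.40 to 14.64 in F1 pigs (median 14.09), against 12.36 to 13.72 in CR pigs (median 12.58), a difference of 1.30 ± 0.23 (adjusted p = 0.00845). The remaining 4 SLA-3 probes had positive differences that did not pass, between 0.16 and 1.03. SLA-3 shares long stretches with other class I genes, so reads of a probe cannot be assigned to a single gene with certainty. In the 12 fits that left out 1 pig, A_72_P515992 and A_72_P625308 each lost the call in 1. A_72_P609764 lost it in 5 and A_72_P517623 in 7. Without F1 replicate 5 none of the 79 probes of the MHC class I list passed, and the smallest adjusted p among them was 0.0519.

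The rest of the class I region showed mixed values. SLA-1, a second classical gene, had 7 probes between -0.55 and 1.201, of which 0 passed, and its leading probe A_72_P124686 was at 1.201 ± 0.349 (adjusted p = 0.489). SLA-5, which lies 5 genes from SLA-3 in the gene order of the RefSeq table, had 2 probes at 0.36 and 1.79, neither past the threshold. The single probe of SLA-6, a non-classical gene, was at -0.69 (adjusted p = 0.757). SLA-8 had 4 probes between 0.38 and 0.62, and the SLA-7 probe was at -0.06. Over the whole list of MHC class I and antigen processing genes (23 of 30 genes measured, 79 probes), 4 probes were higher and 0 lower. The median difference of the list was 0.05, close to 0.01 over all probes, so the called probes were those of SLA-3 and did not extend over the list. The mean of the list in each pig ran from 11.62 to 12.10 in F1 pigs, against 11.45 to 11.73 in CR pigs.

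Mitochondrially encoded genes were higher in F1 pigs with 2 COX2 probes. COX2 encodes a subunit of cytochrome c oxidase, the terminal enzyme of the respiratory chain. For A_72_P751248, F1 pigs lay within 14.33 to 14.53 (median 14.46) and CR pigs spread from 12.10 to 13.71 (median 13.17), a difference of 1.41 ± 0.29 (adjusted p = 0.0457). For the overlapping A_72_P746371, F1 pigs ranged from 12.21 to 12.90 (median 12.47) and CR pigs from 5.67 to 11.67 (median 8.03), a difference of 4.52 ± 0.93 (adjusted p = 0.0484). No CR pig reached an F1 pig with either probe. With the second probe the CR pigs spread widely, with replicate 1 at 11.67 and the others between 5.67 and 8.79. LW pigs in HS also spread widely with this probe, from 7.85 to 12.45. These calls were narrow, since the first was lost in 10 and the second in 11 of the 12 fits that left out 1 pig, with adjusted p up to 0.214 and 0.202. They were also lost with the mean of the red cell lists as a covariate, where the differences were 1.37 (adjusted p = 0.0502) and 4.49 (adjusted p = 0.0566).

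The other mitochondrially encoded probes pointed the same way with smaller differences. This list of 13 genes, all measured, was drawn up after the COX2 values had been seen, and no test was made on it. Of its 127 probes, 125 had a positive difference, 101 (79.5%) had an unadjusted p under 0.05, all of those higher in F1 pigs, and the median difference was 0.79. The same share over all probes was 3.02%. The mean of these probes in each pig ran from 13.997 to 14.446 in F1 pigs, against 12.08 to 13.67 in CR pigs, without overlap. LW pigs in HS ran from 13.19 to 14.26 and overlapped both groups. Their median of 13.45 lay near that of CR pigs (13.52) and under that of F1 pigs (14.26). CR replicate 4 was the lowest CR pig for 124 of the 127 probes. This pig also had the lowest array signal of the 12 pigs, with a 75th percentile of the processed intensity of 145 and 59.2% of probes well above background, and the part of array signal in the result was not tested. Without this pig the median was 0.52 and 62 probes had an unadjusted p under 0.05. Probes of 1 genome in the same 12 pigs are not independent of each other.

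By gene, the median difference ran from 0.29 for ND4L to 1.22 for COX2. ND2, a subunit of complex I, had 12 probes between 0.68 and 3.61. ND1, of the same complex, had 20 probes between -0.18 and 3.27. CYTB, the mitochondrial subunit of complex III, had 21 probes between 0.10 and 1.87. COX1, the catalytic subunit of cytochrome c oxidase, had 25 probes between 0.41 and 4.54, and ATP6, of the ATP synthase, had 9 probes between 0.57 and 1.03. Nuclear genes of oxidative phosphorylation did not share these values. On that list (61 of 74 genes, 190 probes) 0 probes passed, the median difference was 0.03, and the leading probe, of the complex I subunit NDUFA9, was at 0.41 ± 0.13 (adjusted p = 0.757).

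**Figure D2:**
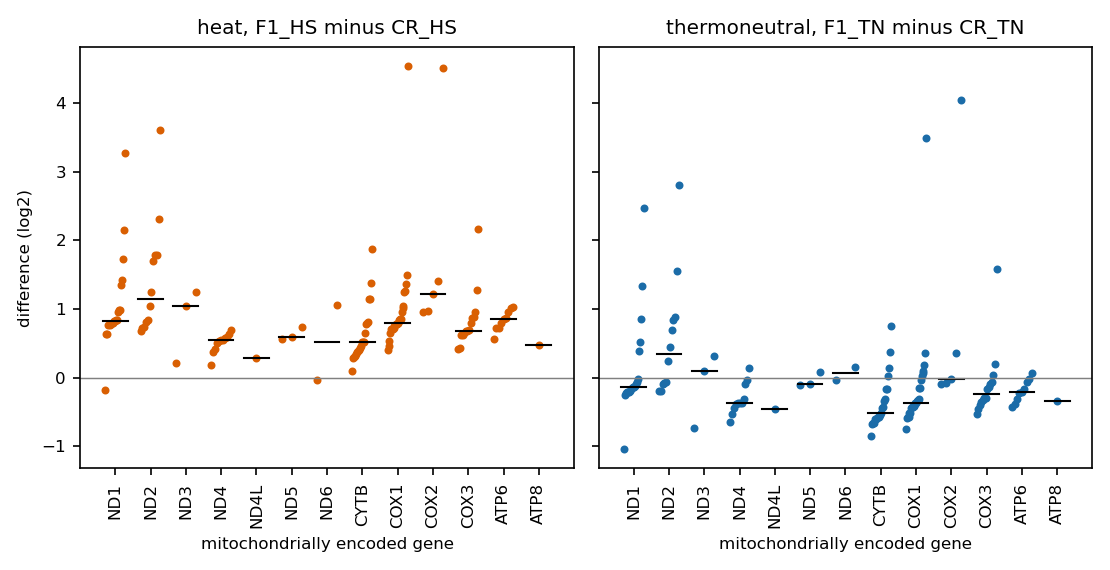
Differences between F1 and CR pigs (log2, vertical axis) for the 127 probes of the 13 mitochondrially encoded genes, in the heat (left) and in thermoneutral conditions (right). Points are probes, sorted within a gene, and black lines are medians. In the heat 125 of 127 probes are above 0, against 33 of 127 in TN, and a few probes of ND1, ND2, COX1, COX2 and COX3 stand far above the others in both climates.

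A small number of mitochondrial probes stood far from the rest. There were 7 probes with a difference of 2 or more in HS, from ND1, ND2, COX1, COX2 and COX3, with a median of 3.27. In TN the same 7 probes had differences from 1.33 to 4.05, all with an unadjusted p under 0.05, although 0 passed after adjustment. The COX1 probe A_72_P762153 illustrates them, with F1 pigs from 12.64 to 13.67, CR replicate 1 at 12.51 and the other 5 CR pigs from 6.41 to 9.04. Its difference of 4.54 ± 1.002 did not pass the threshold (adjusted p = 0.0988). The ND2 probe A_72_P719508 had the same layout, with F1 pigs from 13.13 to 13.62, CR replicate 1 at 12.83 and the other CR pigs from 8.10 to 9.72 (3.61 ± 0.82, adjusted p = 0.12). CR replicate 1 was the highest CR pig for 6 of these 7 probes. The remaining 120 probes had a median of 0.77 in HS and of -0.20 in TN.

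Overlapping probes of the mitochondrial genes gave a further description of this split. Of the pairs that shared 30 bases or more, 18 differed in 1 to 4 letters, and the gap between the 2 differences of a pair had a median of 0.21 and a maximum of 3.10, reached by the COX2 pair shown above. In 10 pairs with the same letters the median gap was 0.05. A maximum of 1.36 was found there too, for 2 COX3 probes that share 33 bases, so large gaps also occurred without a difference in the shared letters. The part that sequence differences between the pigs had in these values was not tested.

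**Figure D3:**
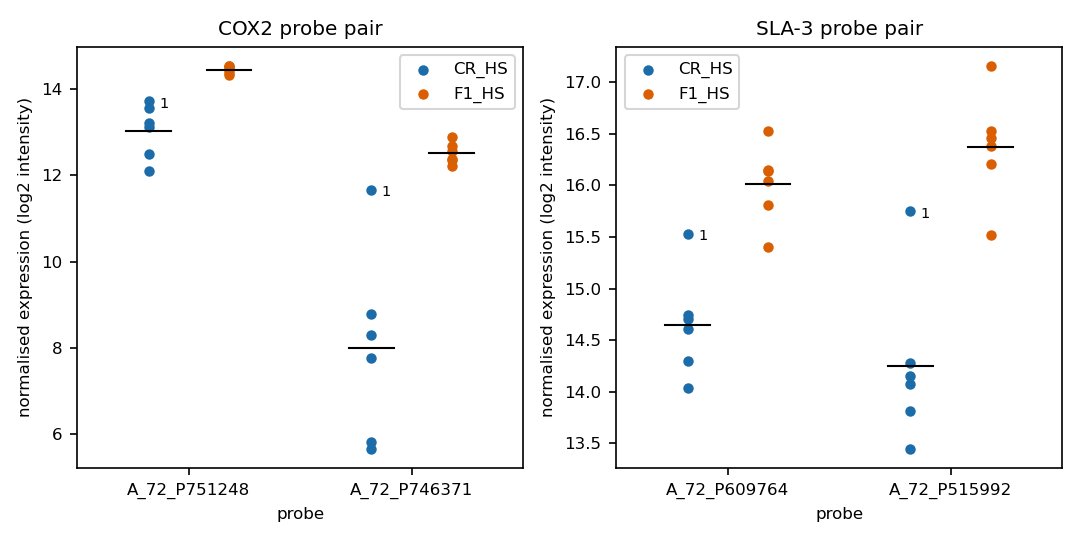
Normalised expression (log2 intensity, vertical axis) of the 6 CR_HS and 6 F1_HS pigs for the overlapping probes of COX2 (left) and SLA-3 (right). Points are pigs, black lines are group means, and the number 1 marks CR replicate 1, which lies nearest to the F1 pigs with A_72_P746371 (11.67) and A_72_P515992 (15.75).

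Immunoglobulin transcripts gave 1 called probe. The probe A_72_P713930, described in the files as the Ig gamma 1b constant region, ranged from 8.97 to 11.10 in F1 pigs (median 10.69), against 7.90 to 9.64 in CR pigs (median 8.23). The difference was 2.06 ± 0.41 (adjusted p = 0.0378), and the overlap came from F1 replicate 1 at 8.97 and CR replicate 5 at 9.64. The call was lost in 10 of the 12 fits without 1 pig. The other 13 immunoglobulin gamma heavy chain probes, all named LOC396781, had differences between 0.00 and 0.14, and 0 of them had an unadjusted p under 0.05. On the list of B cell and immunoglobulin genes (14 of 34 genes, 37 probes) 0 probes passed, with a median of -0.05. The G1b probe has no gene symbol and so could not be a member of this list. BLNK, an adaptor of B cell receptor signalling, was at -0.29 ± 0.16. CD72, a B cell co-receptor, was at 0.25 ± 0.17. The higher signal was thus seen for the G1b probe among the gamma chain probes of this array, and not for the B cell genes of the list.

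MYBPH, myosin binding protein H, was higher in F1 pigs. Its probe O10905 ranged from 7.09 to 8.57 in F1 pigs (median 7.81), against 5.85 to 6.85 in CR pigs (median 6.20), without overlap, a difference of 1.52 ± 0.30 (adjusted p = 0.0321). The call was lost in 8 of the 12 fits without 1 pig. The other 2 MYBPH probes, which are the same 60 bases and share 45 with it, were at 1.07 and 1.21. In the gene order of the RefSeq table for the pig assembly, the next genes on one side are CHI3L1 and CHIT1, both of the chitinase family and made by macrophages and neutrophils. CHI3L1 had 3 probes between 1.44 and 1.51, with a smallest adjusted p of 0.519. The CHIT1 probe ranged from 6.08 to 7.80 in F1 pigs, against 5.26 to 5.78 in CR pigs, without overlap (1.43 ± 0.33, adjusted p = 0.12). On the other side, ADORA1 had 3 probes between -0.19 and -0.08, and the 2 MYOG probes were at -0.09 and 0.09. These neighbours were looked up after the call of MYBPH, and none of them passed.

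KIT, the receptor of stem cell factor on blood progenitors, mast cells and pigment cells, is known in pigs for alleles that give a white coat. The probe A_72_P165111 ranged from 7.46 to 8.30 in F1 pigs (median 8.09), against 6.84 to 7.67 in CR pigs (median 7.17), a difference of 0.81 ± 0.16 (adjusted p = 0.0358). Only F1 replicate 2, at 7.46, lay within the range of the CR pigs. LW pigs in HS were at 8.05 to 8.58, above every CR pig. The other 4 KIT probes were at 0.17 to 0.74, 3 of them with an unadjusted p under 0.05, and the call was lost in 9 of the 12 fits without 1 pig. KDR, a receptor of vascular growth factor that is the nearest measured gene on one side of KIT, had 2 probes at 0.06 and 0.69, and neither passed.

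CMBL, a cytosolic hydrolase, showed tight groups. The probe O14556 ranged from 6.91 to 7.13 in F1 pigs, against 5.81 to 6.38 in CR pigs, without overlap (0.84 ± 0.17, adjusted p = 0.0378). The second CMBL probe, which shares all but 1 of 57 bases with it, was at 0.84 as well (adjusted p = 0.0765). Leaving out any 1 of 11 pigs among the 12 lost the call of O14556, with adjusted p up to 0.144. LOC100335347, a predicted gene, ranged from 7.47 to 8.52 in F1 pigs, against 5.35 to 7.57 in CR pigs (2.03 ± 0.36, adjusted p = 0.00845). Here 5 CR pigs lay within 5.35 to 5.63, and CR replicate 6 stood apart at 7.57, inside the range of the F1 pigs. LW pigs in HS were at 7.70 to 8.72.

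The other higher probes had no gene name. OTTSUST00000001101 ranged from 10.79 to 12.61 in F1 pigs (median 11.99), against 8.46 to 11.18 in CR pigs (median 8.93), a difference of 2.62 ± 0.39 (adjusted p = 0.00119). CR replicate 1 was again the CR pig in the F1 range, at 11.18, and the call held in all 12 fits without 1 pig. TC592761, which the files describe as similar to a coiled-coil domain protein, ranged from 6.57 to 7.15 in F1 pigs, against 5.43 to 6.01 in CR pigs, without overlap (1.16 ± 0.16, adjusted p = 0.000215). OTTSUST00000001126 was at 5.40 to 6.23 in F1 pigs and at 4.90 to 5.26 in CR pigs (0.92 ± 0.14, adjusted p = 0.0015). It was well above background on 1 CR array and on all 6 F1 arrays, and LW pigs in HS, at 4.82 to 5.24, resembled the CR pigs in level. CA780596 was at 6.95 to 7.42 in F1 pigs and at 5.78 to 6.92 in CR pigs (0.88 ± 0.17, adjusted p = 0.0226). Its call was lost in 5 of the 12 fits without 1 pig.

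LOC100526026 gave the smallest p-values of the comparison and was lower in F1 pigs. It is a predicted gene, and its probe A_72_P166441 ranged from 5.40 to 6.42 in F1 pigs (median 6.26), against 7.28 to 8.04 in CR pigs (median 7.86). The groups stood apart by a wide gap, with a difference of -1.65 ± 0.19 (adjusted p = 7.36e-06). A second probe of the same 60 bases was at -1.62 ± 0.18 (adjusted p = 6.12e-06), and AK236698, which shares 57 bases with both, was at -1.48 ± 0.16 (adjusted p = 5.58e-06). A further probe of the same cDNA, without shared bases, was at -0.62 ± 0.10 (adjusted p = 0.00244), from 5.94 to 6.31 in F1 pigs, against 6.59 to 6.87 in CR pigs. LW pigs in HS were at 5.43 to 5.95 with A_72_P166441, so the F1 median lay between those of LW and CR pigs. The call of these 4 probes held in all 12 fits without 1 pig.

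MTRF1, a release factor that ends translation in mitochondria, was lower in F1 pigs with 1 of its 6 probes. A_72_P191081 ranged from 5.71 to 6.67 in F1 pigs (median 6.31), against 6.64 to 7.10 in CR pigs (median 6.96), a difference of -0.71 ± 0.14 (adjusted p = 0.0321). LW pigs in HS were at 6.88 to 7.10, above every F1 pig. The groups overlapped only between 6.64 and 6.67. Probes O7914 and A_72_P547886, which are the same 60 bases and share 57 with it, were at -0.74 and -0.69 and did not pass. The other 3 probes of the gene were at 0.08 to 0.24, so the probes of MTRF1 disagreed, and the call was lost in 7 of the 12 fits without 1 pig.

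The unnamed sequence TC610263 was lower in F1 pigs, with 6.79 to 7.22 against 7.27 to 7.91 in CR pigs (-0.69 ± 0.11, adjusted p = 0.00244) and no overlap. BX676125 was at 4.91 to 5.96 in F1 pigs and at 5.75 to 7.02 in CR pigs (-1.03 ± 0.21, adjusted p = 0.0401), was well above background on 3 of 6 F1 arrays and lost its call in 9 of 12 fits without 1 pig. As under 10 items passed in this direction, the next 6 by p-value are given as values that did not pass, with adjusted p between 0.0988 and 0.174. CD55, which protects cells from complement and carries a blood group in man, was at -0.71 ± 0.17, with 9.53 to 10.51 in F1 pigs and 10.352 to 10.996 in CR pigs. AK237324 was at -2.49 ± 0.61, and it passed without CR replicate 1, at -3.12 (limma, adjusted p = 0.00473). DN837572 was at -1.32 ± 0.29, TC542297 at -0.70 ± 0.17 and CF176757 at -0.49 ± 0.11. AK346008 was at -0.67 ± 0.15 and was well above background on 0 F1 arrays. On the deposited scale this puts its mean at least 1.53-fold lower in F1 pigs, a bound that carries no sampling error. With normexp background correction its difference was -0.41. All 6 passed with array weights. DN837572 also passed without CR replicate 3 or 4, AK346008 without CR replicate 6, and CF176757 and TC542297 without CR replicate 1. CF176757 was well above background on 1 F1 array and 4 CR arrays, and it also passed with scaling on the 75th percentile, at -1.96 (limma, adjusted p = 0.0380), and with the red cell covariate, at -0.52 (adjusted p = 0.0407).

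Lists of blood cell markers had 0 probes past the threshold, and their values are given as descriptions. Every gene named from this and the following lists, other than SLA-3, had an adjusted p of 0.35 or more. Lists of red cells were lower in median, namely -0.92 for hemoglobin chains (3 of 13 genes, 5 probes), -0.23 for heme synthesis (16 of 18 genes, 38 probes), -0.18 for red cell membrane (12 of 21 genes, 17 probes) and -0.16 for erythroid regulators (10 of 12 genes, 20 probes). In TN the medians of the same lists were positive, at 0.45, 0.39, 0.41 and 0.18 in turn, against -0.04 over all probes. The values that follow are again those in HS. The probe named HBE1, an embryonic chain, was at -1.02 ± 0.51 and that of the zeta chain HBZ at -0.51 ± 0.37. Whether these probes also read other hemoglobin chains was not tested. PPOX, an enzyme of heme synthesis, was at -0.36 ± 0.22 and the mitochondrial glycine carrier SLC25A38 at -0.32 ± 0.22. The membrane protein EPB42 was at -0.46 ± 0.31 and the anion exchanger SLC4A1 at -0.57 ± 0.42. The regulator NFE2 was at -0.41 ± 0.22 and the iron sensor TFR2 at -0.55 ± 0.33. The mean of the hemoglobin probes ran from 11.88 to 14.25 in F1 pigs, against 12.80 to 15.08 in CR pigs, so that the groups overlapped over most of their range. With the mean of the red cell lists other than hemoglobin as a covariate, 24 probes passed, of which 20 were among the 22.

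White cell and platelet lists overlapped between the groups as well. The T cell list (19 of 27 genes, 56 probes) had 50 probes with a positive difference (89.3%, against 51.6% of all probes) and a median of 0.19. In TN 25% of its probes had a positive difference (43.2% of all probes), with a median of -0.08. LEF1, a transcription factor of naive T cells, was at 0.43 ± 0.15 and the homing receptor CCR7 at 0.42 ± 0.21. The gamma delta T and NK list (21 of 28 genes, 34 probes) had a median of -0.08, with 21 probes lower, down to -0.80, and 13 higher. Its 2 leading genes were both higher, CTSW, a protease of cytotoxic cells, at 0.40 ± 0.17 and the regulator EOMES at 0.28 ± 0.15. Medians were -0.33 for neutrophil genes (17 of 25 genes, 37 probes), -0.22 for monocyte genes (14 of 18 genes, 39 probes) and -0.26 for eosinophil and basophil genes (6 of 14 genes, 9 probes). Of these lists 81.1%, 87.2% and 100% of the probes were lower in F1 pigs, against 48.4% of all probes. Lower at an unadjusted p under 0.05 were 0%, 7.69% and 33.3% of them in turn (0.973% of all probes). The neutrophil elastase ELANE was at -0.60 ± 0.38 and the arginase ARG1 at -0.73 ± 0.48. CD14, the co-receptor for bacterial lipopolysaccharide, was at -0.64 ± 0.30 and the fungal receptor CLEC7A at -0.58 ± 0.24. The IgE receptor chain MS4A2 was at -0.35 ± 0.12 and the lipoxygenase ALOX15 at -1.26 ± 0.62. Platelet genes (12 of 19 genes, 31 probes) had a median of -0.17, with 90.3% of the probes lower in F1 pigs. VWF was at -0.81 ± 0.73 and the integrin chain ITGB3 at -0.63 ± 0.64.

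**Figure D4:**
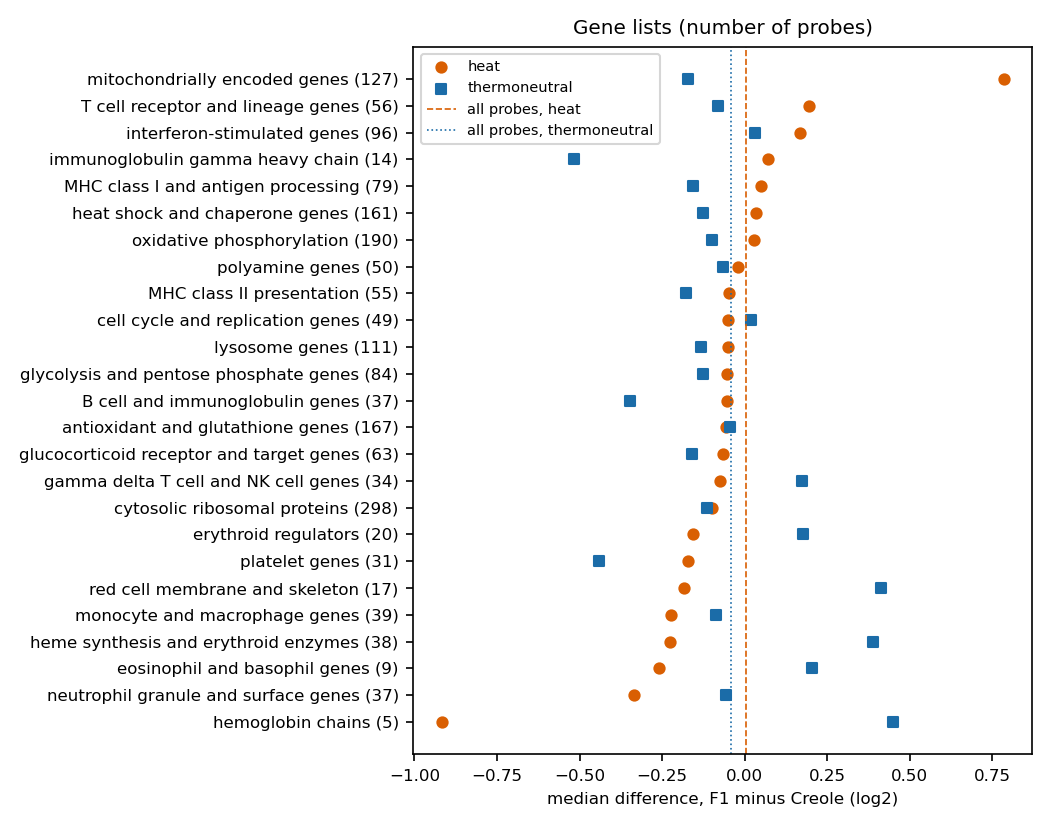
Median difference between F1 and CR pigs (log2, horizontal axis) over the probes of each gene list, in the heat (circles) and in thermoneutral conditions (squares), with the number of probes in parentheses. Vertical lines are the medians of all probes, 0.01 in HS and -0.04 in TN. The mitochondrially encoded genes stand at 0.79 in HS and the hemoglobin chains at -0.92.

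The interferon, MHC class II, chaperone, glucocorticoid and antioxidant lists gave 0 called probes. The interferon-stimulated list (35 of 45 genes, 96 probes) had 68 positive differences and a median of 0.17. XAF1, an apoptosis factor induced by interferon, was at 1.01 ± 0.34 and GBP4, a guanylate binding protein, at 0.92 ± 0.33. The MHC class II list (15 of 20 genes, 55 probes, median -0.05) had 31 probes lower, down to -0.50, and 24 higher. Its 2 leading genes were both higher, the chain SLA-DQA1 at 1.01 ± 0.33 and SLA-DQB1 at 0.42 ± 0.18. Heat shock and chaperone genes (52 of 67 genes, 161 probes) had a median of 0.04, and the cytosolic chaperones HSP90AB1 and HSP90AA1 were at 0.42 ± 0.14 and 0.43 ± 0.18. The glucocorticoid list (14 of 18 genes, 63 probes, median -0.06) had DDIT4 at 0.43 ± 0.23 and HSD11B1, which regenerates active glucocorticoid, at -0.44 ± 0.25. Antioxidant genes (38 of 51 genes, 167 probes, median -0.06) had GSTP1 at -0.30 ± 0.16 and GPX4 at 0.22 ± 0.12.

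Metabolic and growth lists had 0 called probes and medians from -0.10 to 0.03. Cytosolic ribosomal proteins (71 of 80 genes, 298 probes) had a median of -0.10, with 192 probes (64.4%, against 48.4% of all probes) at a negative difference. At an unadjusted p under 0.05, 14 of them were lower (4.70%, against 0.973% of all probes) and 2 higher. RPL6 was at -0.83 ± 0.27 and RPL41 at -0.29 ± 0.12. The second leading gene of nuclear oxidative phosphorylation, ATP5E, was at -0.33 ± 0.16. Glycolysis and pentose phosphate genes (29 of 35 genes, 84 probes) had a median of -0.05, with the isomerase TPI1 at 0.40 ± 0.16 and PDHA1, of pyruvate dehydrogenase, at -0.51 ± 0.23. Lysosome genes (42 of 49 genes, 111 probes) had a median of -0.05, with the membrane protein LAMP2 at 0.71 ± 0.19 (adjusted p = 0.35) and the cathepsin CTSS at -0.50 ± 0.27. Polyamine genes (16 of 16 genes, 50 probes, median -0.02) had AGMAT at -0.46 ± 0.20 and SAT2 at -0.52 ± 0.28. Cell cycle genes (25 of 39 genes, 49 probes, median -0.05) had the kinase AURKA at -0.24 ± 0.13 and the replication factor GINS2 at 0.18 ± 0.12.

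The same breeds in TN showed whether the differences were also present at 24 °C. These are other pigs, but by the methods each litter was spread over the pens of both climates. HS and TN thus share litters, and the TN values are no independent repeat. In F1_TN minus CR_TN, limma detected 10 of 39072 probes (0.0256%), 1 higher and 9 lower in F1 pigs, and 6021 probes (15.4%) had an unadjusted p under 0.05. F1_TN and CR_TN pigs did not overlap for 456 probes (1.17%), 6 of them among the 22. Of the 22 probes called in HS, 19 had the same sign in TN (40.5% of all probes did), 15 had that sign with an unadjusted p under 0.05, and 5 passed in both climates. Those 5 were the overlapping probes of LOC100526026, TC610263 and TC592761. LOC100526026 was at -1.93 ± 0.20 in TN with A_72_P166441 (adjusted p = 5.83e-07). TC610263 was at -0.84 ± 0.12 in TN (adjusted p = 0.000298), and TC592761 at 0.89 ± 0.17 (adjusted p = 0.0333). MYBPH (1.35 ± 0.31), KIT (0.74 ± 0.17), CMBL (0.73 ± 0.18) and the COX2 probe A_72_P746371 (4.05 ± 0.97) were of like size in TN but did not pass there.

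SLA-3 had another layout in TN. The probe A_72_P515992 was at -0.21 ± 0.39 in TN, with 13.77 to 16.23 in F1 pigs and 13.93 to 16.09 in CR pigs, overlapping over nearly their whole range. The other called SLA-3 probes were at -0.06, 0.13 and 0.48 in TN. CA780596 was at -0.05 ± 0.17 in TN, and COX2 with A_72_P751248 at 0.36 ± 0.30. The difference between climates was tested by the interaction of breed and climate, in which limma detected 0 of 39072 probes, with 4629 (11.8%) at an unadjusted p under 0.05. Of the 22 called probes, 9 were among those 4629. The smallest unadjusted p of the 22 was that of SLA-3 A_72_P515992, with an interaction of 2.34 on the log2 scale (limma, adjusted p = 0.398). No probe was thus shown to differ in its breed difference between HS and TN. Among the mitochondrially encoded probes, 102 of 127 had an unadjusted interaction p under 0.05, 0 passed, and the median differences were 0.79 in HS and -0.17 in TN. The 75th percentile of the processed intensity had a median of 152 (112 to 186) on F1_TN arrays and of 227 (146 to 329) on CR_TN arrays, and the part of array signal in these TN values and interactions was not tested.

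**Figure D5:**
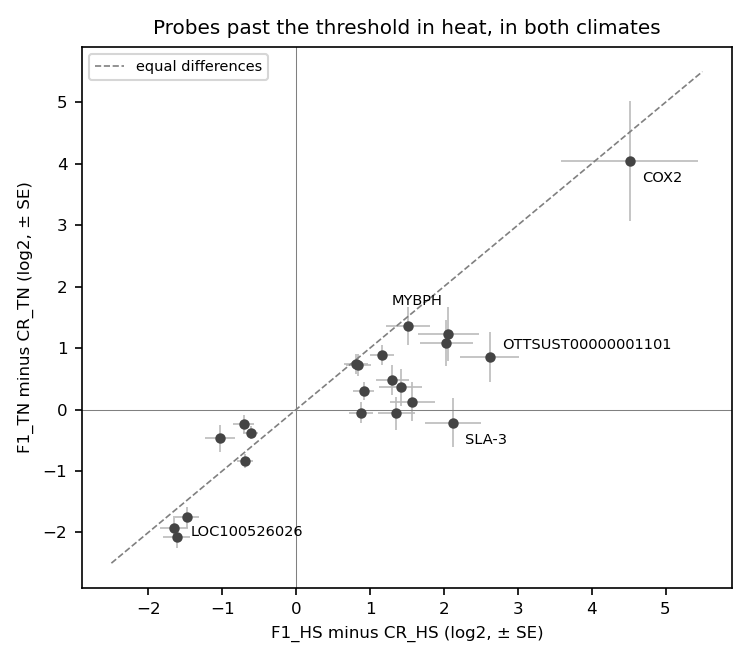
Difference between F1 and CR pigs in the heat (horizontal axis, log2 ± SE) and in thermoneutral conditions (vertical axis, log2 ± SE) for the 22 probes past the threshold in the heat. Points are probes and the dashed line marks equal differences. The LOC100526026, MYBPH and COX2 (A_72_P746371) probes lie near the line, and the SLA-3 probe A_72_P515992 lies at 2.12 in HS and -0.21 in TN.

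LW pigs in HS were set beside both groups. Of the 15 probes higher in F1 than in CR pigs, 14 also had an LW mean above the CR mean, by 0.66 or more. For OTTSUST00000001126 the number of LW arrays well above background was 0, so its LW and CR levels were not ranked. Among the lower probes, 6 of 7 had an LW mean below that of CR pigs, the exception being MTRF1. For 10 of the 22 probes the F1 mean lay between those of CR and LW pigs. Among the other 12 were SLA-3 with A_72_P515992, where LW pigs had a median of 15.24 against 16.42 in F1 pigs, and OTTSUST00000001126. These LW values share the CR pigs with the comparison above. The probes were called with those CR values, which favours such counts in advance, and the shares over all probes are not given. The LW values are thus levels only. Arrays of F1 and CR pigs in HS did not differ detectably in signal, with a 75th percentile of 172 to 266 in F1 pigs and 145 to 289 in CR pigs (two-sided exact permutation p = 0.654, 924 splits, n = 6 in each group). The share of probes well above background was 63.2% to 67.5% in F1 pigs and 59.2% to 67.3% in CR pigs (two-sided exact permutation p = 0.645).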

How the data were processed

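RNA of whole blood from 35 pigs was hybridised to 1-colour Agilent arrays. Per the file headers, the deposited scanner files hold the intensity of each spot from Agilent Feature Extraction 10.10.1.1. The authors made the deposited log2 values from the median intensity, by quantile normalisation, keeping probes they counted as expressed. These values, for 39072 probes, were used as deposited. Intensities recomputed here gave r = 0.99997 with them. No 2 arrays were duplicates (highest r between arrays 0.992). Genome coordinates were not used.

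Groups came from the labels. Each probe was fitted with limma 3.58.1 (lmFit, eBayes, R 4.3.3) on 6 group means over all 35 arrays, with contrasts F1_HS minus CR_HS, F1_TN minus CR_TN and their difference, two-sided, Benjamini-Hochberg over 39072 probes, threshold 0.05. The script was tested on simulated data. Sire, dam, pen and day of slaughter, random effects in the methods, have no labels and were left out. Of the probes, 16711 were named by symbol, 485 by older symbol, 1878 by accession and 2679 by the name in the files, and 17319 had none. Gene order came from a RefSeq table. Members, gene lists and tests were chosen with earlier results of these data known. Named were called genes (up to 15 per direction, probes of a gene or sharing 30 bases counted once), further genes by p up to 10, and the 2 leading genes per list. Neighbouring genes, the other probes of a gene set shown in full and the mitochondrial list were chosen after values were seen. Alternatives were other normalisations and filters, 12 or 23 arrays only, slide as a block, array weights, an erythroid covariate and leaving out each pig. The number of arrays limits the precision.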

Additional observations from a re-analysis of the deposited data

Results flagged for a closer look

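For the 22 called probes and 2 array measures, the pig farthest from the other 5 of its group was examined in 48 sets of 6 values, and 9 stood apart by more than the 95% critical value of Dixon's test, where chance gives about 1 in 20 separate sets. Several of the sets come from overlapping probes in the same pigs. The 9 are thus not separate events, and their number cannot be set against that share. The value of CR_HS replicate 6 for LOC100335347 was 7.57, against 5.35 to 5.63 in the other 5 CR pigs. CR_HS replicate 1 had 15.75 for SLA-3 A_72_P515992, against 13.45 to 14.28. In F1_HS pigs, replicate 2 had 7.46 for KIT (others 8.04 to 8.30) and 5.40 for OTTSUST00000001126 (others 5.92 to 6.23), and replicate 1 had 8.97 for the IgG1b probe U03778 (others 10.56 to 11.10). For LOC100526026, F1_HS replicate 4 had 5.40 and CR_HS replicate 4 had 7.28, each the lowest of its group, and with the second probe of the same letters these pigs had 5.59 and 7.30. The causes were not tested.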

How the results depend on the processing

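No paired analysis was possible because replicate numbers follow the order of the sample records and pair no pigs. The 22 probes in HS became 14 without the filter on expressed probes (60305 tested), 8 with only the 12 arrays of the comparison, which leaves fewer arrays for the spread, and 51 with array weights. Leaving out 1 pig gave 9 to 38, namely 9 without F1_HS replicate 5, 11 without F1_HS replicate 6, 14 without CR_HS replicate 4 and 38 without CR_HS replicate 1. Between 3 (without CR_HS replicate 1) and 13 (without F1_HS replicate 5) of the 22 calls were lost in these fits. The 10 probes in TN became 6 with only the 23 arrays of F1 and CR pigs, and 5 to 33 without 1 pig, namely 33 without F1_TN replicate 6, 17 without F1_TN replicate 1, 6 without CR_TN replicate 1 or F1_TN replicate 4, and 5 without CR_TN replicate 3, CR_TN replicate 5 or F1_TN replicate 3. The interaction gave 0 probes under every alternative run. Slide as a fixed block gave 29 probes in HS (21 of the 22 among them), slide as a random block 26 (all 22) and the erythroid covariate 24. No named probe changed sign under the alternatives run. Of 22 called probes, 3 overlapping LOC100526026 probes and TC592761 passed under every alternative. Scaling on the 75th percentile of the background-subtracted intensity moved CF176757 from -0.49 to -1.96 (adjusted p = 0.0380, now past the threshold) and AK346008 from -0.67 to -2.31 (adjusted p = 0.259), and put OTTSUST00000001126 at 2.69, BX676125 at -2.44 (adjusted p = 0.259), TC592761 at 2.24, LOC100335347 at 3.24, CMBL at 1.31, MTRF1 at -1.20, CA780596 at 1.32, TC542297 at -1.22 and A_72_P624945 at -1.05. It also moved MS4A2, CLEC7A, AGMAT, RPL41, AURKA and HSD11B1 by over 1.5 times, none past the threshold. Normexp gave 0.56 for OTTSUST00000001126, -0.66 for BX676125 (adjusted p = 0.0973), -0.41 for AK346008, -0.27 for CF176757 and -0.14 for RPL41. The cause was not tested. The mitochondrial median ranged from 0.52 to 0.86 without 1 pig, with 0 to 13 called probes, 13 without CR_HS replicate 1. The MHC class I median ranged from -0.03 to 0.09. These 2 ranges were added after seeing the data. All values rest on 6 pigs a group of few litters.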

Other observations

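CCR9, a chemokine receptor of gut-homing lymphocytes, was close to the threshold in F1_HS minus CR_HS, with 2 probes at 0.82 and 0.83 (limma, adjusted p = 0.0780 and 0.0816). The values of A_72_P232912 ranged from 8.94 to 9.63 in F1 pigs, against 7.999 to 9.294 in CR pigs. The gene was picked after its values had been seen.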
